A study of Homo sapiens with 12 samples.

Results

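The m6A peaks annotated to coding exons were examined in A375 cells, a human melanoma line, and were taken as the rows that the deposited tables annotate as exonic, leaving out exons of non-coding RNA. They numbered 12883 of the 96856 rows in all: 6134 of 46039 peaks (13.3%, 95% Wilson interval 13.0 to 13.6%) in the shALKBH5 list, 5951 of 44304 (13.4%, 13.1 to 13.8%) in the shCtrl list and 798 of 6513 (12.3%, 11.5 to 13.1%) in a list of differential peaks. One group had been infected with a lentivirus for a small hairpin RNA against ALKBH5 (shALKBH5, labelled as ALKBH5 knockdown) and the other with a control hairpin (shCtrl, labelled as wild type). Both groups were grown and puromycin-selected alike, and the hairpin used for sequencing is not named. Each group had 3 input and 3 immunoprecipitation (IP) libraries, but the peaks came as 1 list per group, so no peak value had a replicate, and intervals cover counting error only. Expression came from the 6 input libraries as FPKM, fragments scaled by gene length and library total. Read depth was unknown, and the libraries held 10624 to 10946 genes at 1 FPKM or more.

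N6-methyladenosine (m6A) is placed on mRNA by a METTL3-METTL14 complex and removed by the demethylases ALKBH5 and FTO. It is known to gather near stop codons, in 3′ UTRs and inside unusually long internal exons, mostly within a short consensus whose core is often GGACU. In MeRIP-Seq, RNA fragments are pulled down with an antibody to m6A, and a peak is a stretch where the IP exceeds the input by the fold enrichment that the peak caller gives.

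The targeted gene was lower in the shALKBH5 libraries. ALKBH5 was at 3.39, 3.92 and 3.12 FPKM in shALKBH5 and at 19.3, 17.8 and 17.6 FPKM in shCtrl libraries, and the groups did not overlap (log2 change -2.36, SE 0.0887, limma adjusted p = 1.276e-06). The melanocyte list summed to between 186 and 199 FPKM in every library, nearly all of it SOX10, a neural crest transcription factor, while the pigment enzymes TYR and DCT were near 0, at most 0.0360 FPKM. Of 6 tested members 3 rose and 1 fell, where 34.7 and 26.2% of all tested genes did, too few to set the list apart. The melanocortin receptor MC1R was at 4.05 to 4.55 FPKM in shALKBH5 against 2.00 to 2.31 in shCtrl, the endothelin receptor EDNRB at 2.23 to 2.84 against 1.56 to 1.91, and the transcription factor PAX3 at 0.508 to 0.643 against 1.08 to 1.24, with no overlap of the groups, as for 67.0% of all tested genes. The groups overlapped for the third that rose, the transcription factor MITF (1.57, 0.913 and 1.31 against 0.675, 1.01 and 0.645 FPKM), and 2 rose with the replicate block, median ratio rescaling, eBayes without a trend, or without shALKBH5 replicate 1 or 3 or shCtrl replicate 1 or 3. Leukocyte markers, mainly the lysosomal protein CD68, summed to 42.9 to 46.7 FPKM in shALKBH5 and 15.6 to 18.1 FPKM in shCtrl, whereas fibroblast markers summed to 5.57 to 6.76 and 8.79 to 9.75 FPKM. The lower fibroblast sum came from PDGFRB (2.64 to 2.88 against 6.89 to 7.85 FPKM), while the matrix proteoglycan LUM was higher (2.09 to 3.19 against 1.13 to 1.19 FPKM). Their part in the results was not tested.

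Of the coding-exon peaks whose gene matched RefSeq, 5990 of 6000 in shALKBH5 and 5816 of 5821 in shCtrl lay in protein-coding genes, which checks the gene and not the exon. A few short coding-exon peaks had the same ends as annotated microRNA hairpins or held them whole. Whether their signal came from the hairpin or from the RNA of the host gene was not tested. The peak in CHPF2, a chondroitin synthesis gene, ran over chr7:151238421-151238538 on the plus strand (GRCh38.p14) in both lists, base for base the hairpin of MIR671. The peak in SON, a splicing factor gene, ran over chr21:33550662-33550728 on the plus strand, exactly the hairpin of MIR6501. The mature microRNAs of these 2 hairpins are shown because the peaks coincide with them; sequences are from RefSeq, 5′ to 3′, and capitals mark the seed (bases 2 to 8).
hsa-miR-671-5p: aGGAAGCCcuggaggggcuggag
hsa-miR-671-3p: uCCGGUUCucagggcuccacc
hsa-miR-6501-5p: aGUUGCCAgggcugccuuuggu
hsa-miR-6501-3p: cCAGAGCAgccugcgguaacagu

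The CHPF2 peak had a fold enrichment of 5.70 in shALKBH5 and 5.74 in shCtrl, with log10 p of -126 and -67.8 from the peak caller. The SON peak had 3.15 and 3.19, with log10 FDR of -1.68 and -1.95. The folds of both peaks were nearly equal between the lists, while CHPF2 itself rose in expression, from 17.8, 15.4 and 16.0 FPKM in shCtrl to 30.9, 31.2 and 34.2 FPKM in shALKBH5 libraries (log2 change 0.97, SE 0.0671, limma adjusted p = 1.845e-05). A further 3 coding-exon peaks of at most 1000 bp in the shALKBH5 list held a whole hairpin, those of MIR1199 in MISP3, MIR4315-1 in PLEKHM1 and MIR615 in HOXC5. One mature microRNA of each is shown to compare the seeds, and no 2 of the 7 microRNAs printed share one.
hsa-miR-1199-5p: cCUGAGCCcgggccgcgcag
hsa-miR-4315: cCGCUUUCugagcuggac
hsa-miR-615-3p: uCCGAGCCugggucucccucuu
The letters GGACU were found in none of these 5 hairpins, nor was AGUCC, the same motif on the opposite strand. Of the 1562 RefSeq hairpins, 8.83% hold GGACU and 6.72% hold AGUCC. The absence says only that these letters are not in these windows.

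Coding-exon peaks lay between the ends of their genes, as their annotation requires, but leaned toward the 3′ side. Place was measured along the gene span with its introns and was not compared with the place of the coding exons themselves. The peak midpoint sat at a median of 64.1% of the gene span from its 5′ end in shALKBH5 (quartiles 36.6 and 83.1%) and at 63.4% in shCtrl (35.8 and 83.1%), against 7.59 and 7.68% for 5′ UTR peaks and 93.5% in both lists for 3′ UTR peaks. The span, introns included, had a median of 899 bp in shALKBH5 and 936 bp in shCtrl, longer than the 511 and 537 bp of 3′ UTR peaks and near the 870 and 873 bp of 5′ UTR peaks. More than 10000 bp was spanned by 12.6 and 13.8% of coding-exon peaks, by 7.27 and 7.21% of 3′ UTR peaks and by 1575 of 7639 and 1579 of 7521 5′ UTR peaks, a larger share.

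**Figure D1:**
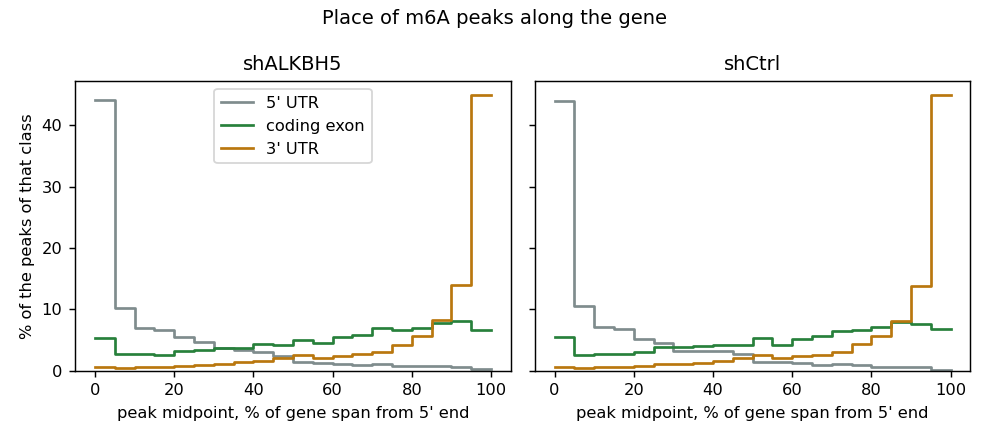
Place of 5′ UTR, coding-exon and 3′ UTR peaks along the gene, as the percent of peaks of each class (vertical axis) in steps of 5% of the gene span from its 5′ end (horizontal axis), for the shALKBH5 list (left) and the shCtrl list (right). Coding-exon peaks spread over the whole span with medians of 64.1 and 63.4%, whereas the UTR classes pile up at the ends.

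Coding-exon peaks were weaker than UTR peaks and sat in genes of lower level. Their median fold enrichment was 4.08 in shALKBH5 (quartiles 2.29 and 7.35) and 4.06 in shCtrl (2.35 and 7.66), against 4.95 and 5.11 for 3′ UTR peaks and 4.90 and 5.11 for 5′ UTR peaks. Their genes had a median of 1.27 and 1.23 FPKM over the input libraries, against 2.69 and 2.66 FPKM for 3′ UTR peaks. Under 0.5 FPKM lay 32.2 and 32.7% of coding-exon peaks but 20.2 and 21.2% of 3′ UTR peaks. Peaks are not replicates, and these differences carry no test.

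Within coding exons, fold enrichment fell with the level of the gene. In shALKBH5 the median went from 6.74 in genes under 0.5 FPKM (1957 peaks) through 3.18 in genes of 1 to 5 FPKM (1870 peaks) to 2.17 in genes of 20 FPKM or more (430 peaks). In shCtrl it went from 6.38 (1927 peaks) through 3.26 to 2.46 (419 peaks). The peak caller's p ran the other way: median log10 p was -3.18 and -3.43 in the lowest class and -60.8 and -76.2 in the highest.

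**Figure D2:**
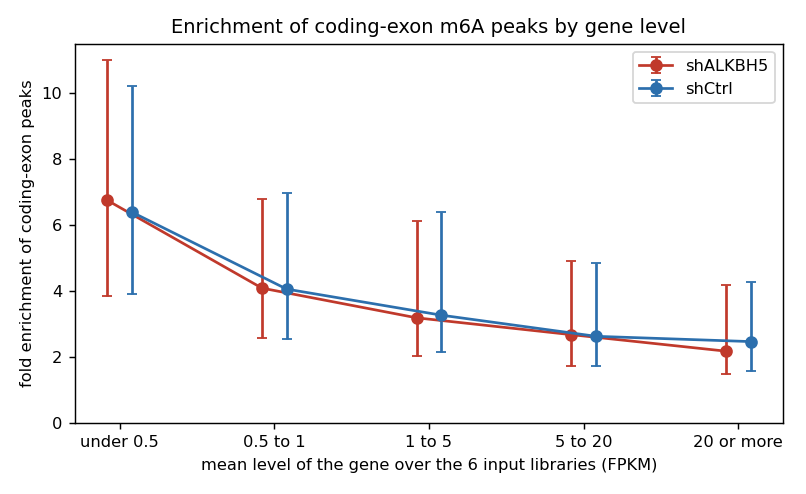
Median fold enrichment of coding-exon peaks (points) with the quartiles (bars) in the shALKBH5 and shCtrl lists, by the mean level of the gene over the 6 input libraries in FPKM (horizontal axis, 5 classes). In both lists the median falls at every step, from 6.74 to 2.17 in shALKBH5 and from 6.38 to 2.46 in shCtrl.

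Fold enrichment also took a small set of repeated values. In shALKBH5 the value 7.35 occurred in 180 coding-exon peaks and 8.57 in 167, and in shCtrl 7.66 occurred in 192 and 8.94 in 141. These are 6 and 7 times a unit of 1.224 in shALKBH5 and of 1.277 in shCtrl. Whole multiples of 2 to 20 units, matched to 3 significant digits, made up 23.1% of coding-exon peaks in shALKBH5 and 20.8% in shCtrl, and 31.4 and 30.2% of all peaks, where the median candidate unit took 1.44 and 1.40%. The share on the unit was 47.3 and 44.2% in genes under 0.5 FPKM and 6.74 and 6.44% in genes of 20 FPKM or more.

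The strongest coding-exon peaks in genes of at least 5 FPKM were in part in the same genes, since 6 of the 10 named in each list were shared. MAML3, a coactivator of Notch signalling, had the largest fold in each, 285 in shALKBH5 and 395 in shCtrl, over a span of 263691 and 263781 bp. FOXO4, a forkhead transcription factor, had 205 and 163. MANF, a secreted factor of the endoplasmic reticulum stress response, had 77.3 and 54.1 over 357 and 387 bp. RAB11FIP5, which binds RAB11 on recycling endosomes, had 64.8 and 150. PRRC2A, an RNA-binding protein that has been described as an m6A reader, had 47.5 and 42.7, PRR12 37.8 and 27.3, and YEATS2, a histone acyl-lysine reader, 32.5 and 26.3.

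Several of the strongest peaks had no matched coding-exon peak in the other list. A match here is a one-to-one pair that overlaps by at least 50% of each peak. A peak without a match can still overlap a peak of the other list. ZBTB47, a zinc finger gene, had a fold of 167 in shCtrl with no match in shALKBH5, and MXRA7 had 71.5 in shCtrl with none. SMN2, which makes the splicing factor assembly protein SMN, had 175 in shALKBH5 with no match in shCtrl, and its near-identical copy SMN1 makes its reads uncertain. GATD3A, at 30.6 in shALKBH5 with no match, has the same limit. The peaks of CIRBP, a cold-inducible RNA-binding protein, at 40.7 in shALKBH5, and of FDXR, a mitochondrial reductase, at 39.6 in shCtrl, matched a peak that the other list annotated as 3′ UTR, of 47.5 and 6.25. GOLGA2, a Golgi matrix protein gene, had 44.4 in shCtrl and 25.1 in shALKBH5.

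All 13 coding-exon peaks on the mitochondrial genome had the same ends in both lists. Every one was at least 90% as long as the gene it was assigned to, and MT-ATP8 and MT-ND4L, which overlap their neighbours, were each assigned 2. Fold enrichment ran from 3.04 to 21.6 in shALKBH5 and from 3.29 to 25.6 in shCtrl. MT-ND6, the only one on the minus strand, was highest with 21.6 and 25.6, and MT-CO1, a core subunit of cytochrome c oxidase with the highest level, 126 FPKM, had 5.00 and 4.50. The log2 ratio of shALKBH5 to shCtrl had a median of -0.04 and lay between -0.28 and 0.16. Identical ends were rare among coding-exon peaks as a whole: 266, 4.34% of shALKBH5 and 4.47% of shCtrl, had them in both lists.

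Most genes with a coding-exon peak had 1. This was so for 2521 of 3804 genes in shALKBH5 (66.3%) and 2449 of 3676 in shCtrl (66.6%), while 475 and 489 genes had 3 or more. The genes with the most were giants with long coding sequences. DST, a cytoskeletal linker, had 16 peaks in shALKBH5 and 15 in shCtrl, FAT4, a giant cadherin, 16 and 13, VCAN, a matrix proteoglycan, 15 and 12, and AHNAK2 15 and 13. BSN and PCLO, which scaffold the presynaptic active zone, had 13 and 14 and 11 and 14. FLG, the keratinocyte gene of filaggrin, had 14 and 10 at a mean of only 0.0958 FPKM, with 0, 0 and 0.187 FPKM in shALKBH5 and 0.123, 0.125 and 0.140 FPKM in shCtrl libraries.

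The number of peaks ran opposite to expression in some of these genes. ZNF469, a zinc finger gene with a huge coding exon, had 5 coding-exon peaks in shALKBH5 and 16 in shCtrl. Its level was 1.45, 1.49 and 1.38 FPKM in shALKBH5 and 0.472, 0.414 and 0.405 FPKM in shCtrl, with no overlap (log2 change 1.54, SE 0.126, limma adjusted p = 4.048e-05). The coding-exon peaks covered 53463 bp in shALKBH5 and 50928 bp in shCtrl, of which 1 peak from the gene start held 45284 and 45433 bp, and their median span was 2636 and 255 bp. One shALKBH5 peak of 4493 bp (chr16:88431415-88435907) lay where shCtrl had 6 peaks of 121 to 780 bp.

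**Figure D3:**
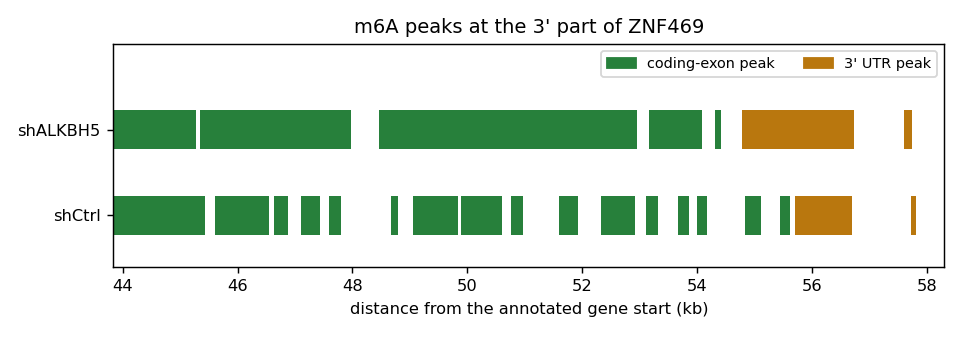
Peaks at the 3′ part of ZNF469 in the shALKBH5 list (upper row) and the shCtrl list (lower row), drawn to scale by distance from the annotated gene start in kb (horizontal axis), with coding-exon peaks in green and 3′ UTR peaks in brown. The shCtrl row has 16 coding-exon peaks and the shALKBH5 row 5, the leftmost in each row begins outside the plot, and the last 2 coding-exon peaks of shCtrl lie within a shALKBH5 peak annotated as 3′ UTR.

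MUC5B, a gel-forming mucin gene, showed the reverse arrangement, with 14 peaks in shALKBH5 and 8 in shCtrl. Its levels were 0.768, 0.687 and 0.698 FPKM in shALKBH5 against 1.76, 1.98 and 1.75 FPKM in shCtrl (log2 change -1.24, SE 0.108, limma adjusted p = 5.636e-05). Its peaks had a median span of 496 bp and 1156 bp. The mitotic genes CENPF and ASPM, chosen after their values were seen, had 10 peaks against 5 and 9 against 7, with log2 changes of -2.16 and -1.99 (SE 0.258 and 0.216, limma adjusted p = 0.000271 and 0.0001671).

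Peak numbers were also counted across genes with several peaks. Of the 4675 genes with a coding-exon peak in either list, 689 had at least 3 in one list and 418 of those passed the level filter of 0.5 FPKM. Among the 36 whose expression was more than 2-fold lower in shALKBH5 (adjusted p under 0.05), 26 had more coding-exon peaks in shALKBH5 and 8 had fewer. Among the 13 whose expression was more than 2-fold higher, 2 had more and 8 had fewer. Of all 12985 tested genes 6.29% were lower and 5.41% higher by this rule. Of the 183 not called, 67 had more and 70 had fewer. The first group had 151 peaks in shALKBH5 and 103 in shCtrl, and the second 39 and 65. With 1 or more peaks in either list the split was smaller, with 95 more and 54 fewer of 242 genes that were lower, and 31 more and 40 fewer of 106 that were higher. With a pseudocount of 1 only 12 lower and 2 higher genes with at least 3 peaks were past 2-fold, of which 10 had more and 1 had fewer. Without a replicate list these counts are a description, and whether methylation had any part in them was not tested.

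Coding-exon peaks were largely found at the same places in both lists. Of the shALKBH5 peaks 81.8% (80.8 to 82.8%) shared 1 bp or more of the same strand with some shCtrl peak, and 82.6% (81.6 to 83.6%) of the shCtrl peaks overlapped a shALKBH5 peak, against 81.1 and 83.8% for 3′ UTR peaks. The overlapping peak was annotated as coding exon for 66.9 and 68.6%, and for 14.9 and 14.1% it was annotated only otherwise, mainly as 3′ or 5′ UTR. When 50% of each peak had to be covered the shares fell to 46.9 and 47.8%.

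Peaks with no counterpart were small and weak. The 1116 in shALKBH5 and 1034 in shCtrl had a median fold enrichment of 2.94 and 2.92 against 4.29 and 4.31 for shared ones, a median log10 p of -2.24 and -2.35 against -8.79 and -10.0, and a median span of 330 and 329 bp against 1020 and 1080 bp. Their genes had a median of 0.637 and 0.625 FPKM. The number of genes with a coding-exon peak in both lists was 2805, which is 73.7% of the shALKBH5 genes and 76.3% of the shCtrl genes.

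Enrichment of matched coding-exon peaks was centred near equality between the lists. The 2593 pairs that overlapped by at least 50% of each peak, in 2024 genes, had a median log2 ratio of shALKBH5 to shCtrl of -0.04 (quartiles -0.30 and 0.23), with 1172 higher and 1402 lower in shALKBH5. Over all 23661 matched pairs of any annotation the median was -0.05. Past 2-fold were 145 coding-exon pairs upward (5.59%) and 147 downward (5.67%), beside 6.86 and 7.34% of all matched pairs and 5.16 and 4.96% of 3′ UTR pairs. In either direction they were 11.3%, against 14.2% of all pairs and 10.1% of 3′ UTR pairs. With 1 list per group these differences have no replicate check.

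Pairs past 2-fold were more frequent in genes of low level and among values on the repeated unit. In genes under 0.5 FPKM 30.1% of coding-exon pairs were past 2-fold, and in genes of 20 FPKM or more 4.03%. A value on a whole multiple of the unit was present in 58.6% of pairs past 2-fold and in 20.5% of all coding-exon pairs. Without such pairs 2.91% were past 2-fold upward and 2.96% downward.

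**Figure D4:**
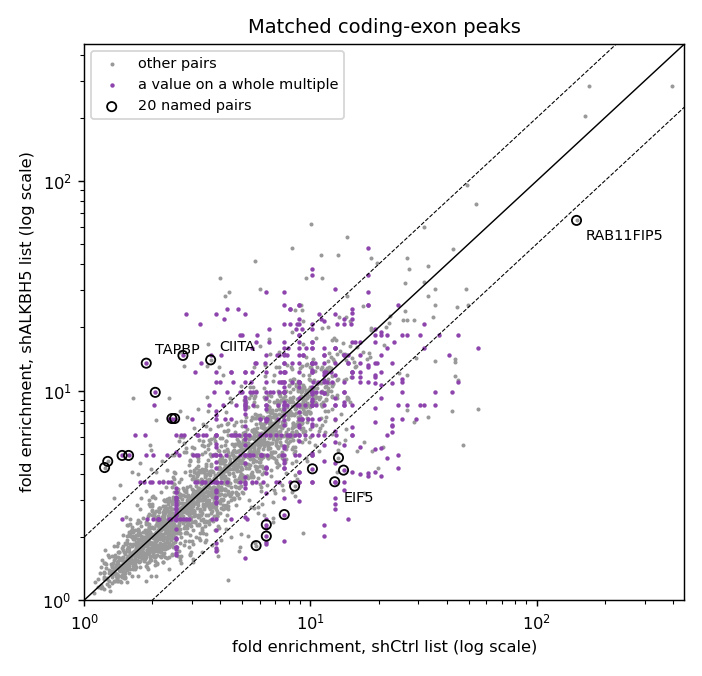
Fold enrichment of the 2593 matched coding-exon peaks in the shCtrl list (horizontal axis) and the shALKBH5 list (vertical axis), both on log scales, with equality as a solid line and a 2-fold difference as dashed lines. Purple points have a value on a whole multiple of the list's unit and form rows and columns, and circles mark the 20 named pairs.

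Among the 925 pairs in genes of at least 5 FPKM with an FDR of at most 0.01 in both lists, 22 were over 2-fold higher in shALKBH5 and 14 lower. The largest increases included TAPBP, which encodes tapasin of the MHC class I loading complex, at 13.5 in shALKBH5 and 1.88 in shCtrl (log2 ratio 2.84), and CIITA, the master activator of MHC class II genes, at 14.0 and 3.62 (1.95). Both genes also rose in expression. TAPBP was at 15.8, 15.2 and 17.2 FPKM in shALKBH5 and 5.77, 5.55 and 6.01 FPKM in shCtrl (log2 change 1.46, SE 0.0618), and CIITA at 10.4, 10.6 and 11.0 against 4.55, 4.13 and 4.19 FPKM (1.30, SE 0.0590), with limma adjusted p of 2.009e-06 and 2.812e-06. The TAPBP value in shALKBH5 is 11 times the repeated unit, and the CIITA values are on no whole multiple.

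The other increases were in LIMCH1, an actomyosin regulator (14.7 and 2.73), the splicing factors PRPF3 (9.80 and 2.06) and RBM10 (4.59 and 1.27), the co-chaperone STIP1 (4.29 and 1.23), PRCC (4.90 and 1.47), the centrosomal CEP85 (4.90 and 1.57), RPL7L1 (7.35 and 2.44) and AFAP1L2 (7.35 and 2.51). The largest decreases were in EIF5, a translation initiation factor, at 3.67 in shALKBH5 and 12.8 in shCtrl (log2 ratio -1.80), and NCBP2, a subunit of the nuclear cap-binding complex, at 4.17 and 14.0 (-1.75). RAVER1, ADAMTS12, C9orf78, MAP7D1, VKORC1, SF3B2 and PCMTD2 followed with log2 ratios between -1.66 and -1.27, and RAB11FIP5 had -1.21. A value on the unit was present in 13 of these 20 pairs, 7 of the increases and 6 of the decreases, against 7.78% of the 925.

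Expression of these genes went both ways. Of the 10 with the largest increase in enrichment 4 rose and 4 fell in expression at adjusted p under 0.05, and of the 10 with the largest decrease 4 rose and 2 fell, where 34.7 and 26.2% of all tested genes did. CEP85 and AFAP1L2, with higher enrichment, fell (log2 changes -1.56 and -1.17), as did ADAMTS12, a secreted protease, with lower enrichment (-1.26). Over all matched coding-exon pairs the median log2 ratio was -0.07 in the 495 genes whose expression rose, -0.03 in the 486 whose expression fell and -0.04 in the 662 not called. Where expression changed more than 2-fold it was -0.10 for genes that rose (25 pairs higher and 41 lower) and 0.03 for genes that fell (67 higher and 61 lower), a difference that was not tested.

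Of the 798 coding-exon rows in the differential list, in 728 genes, 719 overlapped a shALKBH5 peak, 743 a shCtrl peak, 665 both and 1 neither. For the 440 rows with a matched pair, the log2 ratio computed from the lists had a median of -0.15, with 172 higher and 268 lower in shALKBH5, of which 29 and 26 were past 2-fold. AHNAK, a giant scaffold protein, had the most rows, 5. NCOA3, KMT2D, SRRM2, ZNF318, NCKAP5 and ARRDC1 had 3 each. The 423 matched pairs that overlap the list had a median absolute log2 ratio of 0.36, and the others 0.25, but 11.8% and 11.2% of them were past 2-fold.

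Genes with a coding-exon peak were called changed in expression at a share near that of all genes, 59.3% against 61.0%. Of the 4675, 3196 passed the level filter and were tested, and 967 rose and 929 fell (30.3 and 29.1%), where 34.7% of all 12985 tested genes rose and 26.2% fell. Which direction held more of these genes depended on the fit, since those that fell were the more numerous after median ratio rescaling (788 rose and 1068 fell), with no level filter (900 and 991), with the replicate number as a block (843 and 858) and without shALKBH5 replicate 1 (784 and 837), shALKBH5 replicate 3 (814 and 819), shCtrl replicate 1 (880 and 934) or shCtrl replicate 3 (825 and 843). Groups did not overlap for 65.9% of them and for 67.0% of all. The median log2 change was 0.03 and 0.09. Genes that passed the filter are not all genes with a peak, and peaks in weakly expressed genes are left out of these counts.

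Genes with a large drop were ITGB5, the integrin beta 5 subunit, at 5.84, 5.86 and 6.41 FPKM in shALKBH5 and 74.6, 71.8 and 72.0 FPKM in shCtrl (log2 change -3.57, SE 0.0499), and SUCLG2, a subunit of succinyl-CoA ligase, at 1.25, 1.30 and 1.33 against 10.3, 15.0 and 13.4 FPKM (-3.20, SE 0.131). SH3BP4, which takes part in receptor endocytosis, and RRBP1, a ribosome-binding protein of the endoplasmic reticulum, followed with -3.02 and -3.00. Limma adjusted p for these 4 lay between 9.715e-08 and 1.692e-06, and no group overlapped another, which their choice required. Of their coding-exon peaks only that of SH3BP4, 7.29 in shALKBH5 with none in shCtrl, exceeded a fold of 2.

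The genes with the largest rise were HSD17B10, a mitochondrial dehydrogenase, at 156, 156 and 157 FPKM in shALKBH5 and 15.2, 13.0 and 13.4 FPKM in shCtrl (log2 change 3.49, SE 0.0611), and SERPIND1, heparin cofactor II, at 6.51, 7.52 and 6.71 against 1.04, 0.887 and 0.566 FPKM (2.95, SE 0.189). KDM6B, a histone H3K27 demethylase, had 18.6, 18.1 and 20.2 against 3.62, 3.49 and 3.73 FPKM (2.36, SE 0.0593), and HOXA5 and the potassium channel subunit KCNG1 rose by 1.97 and 1.88. Limma adjusted p lay between 1.63e-07 and 1.268e-05. KDM6B had a strong coding-exon peak in both lists, with a fold of 10.4 and 8.94. The coding-exon peaks of HSD17B10 (1.80, shALKBH5 only), HOXA5 (1.81, shCtrl only) and KCNG1 (1.33, shALKBH5 only) were weak. ALKBH5 itself had 1 coding-exon peak, in the shALKBH5 list, with a fold of 1.65.

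**Figure D5:**
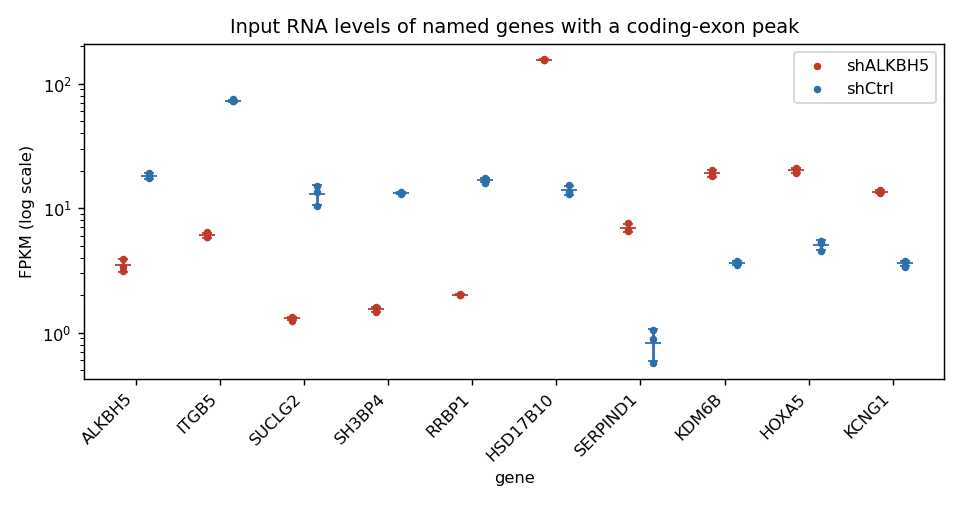
Input RNA levels in FPKM (vertical axis, log scale) of ALKBH5 and 9 genes with a coding-exon peak named for large changes, with 1 point per library and bars for the mean ± SD (n = 3 per group). The groups do not overlap in any of the 10 genes, which the choice of the 9 required, and they did not for 67.0% of all tested genes.

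Gene lists differed widely in how many of their peaks lay in coding exons. Of 32 genes known for a long internal exon 30 had such a peak, and 61.0% of their 313 peaks in shALKBH5 and 60.1% of their 303 in shCtrl were coding-exon peaks, against 13.3 and 13.4% of all peaks. Chromatin regulators followed with 38.2 and 39.3%, and C2H2 zinc finger genes with 21.2 and 20.9%. Autophagy genes had 12.2 and 13.0%, and immediate early genes, which are short, 4.88 and 11.0% (4 and 8 peaks). Among m6A writers, erasers and readers 16.2 and 13.5% of peaks were in coding exons.

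The long internal exon genes were lower in expression more often than higher. Of 25 tested 13 fell and 3 rose, with a median log2 change of -0.45, where 26.2% of all tested genes fell and 34.7% rose. Among those that fell, MKI67, the proliferation marker Ki-67, was at 3.18, 2.57 and 2.87 FPKM in shALKBH5 and 10.3, 12.9 and 9.06 FPKM in shCtrl (-1.86, SE 0.136), MDC1, a DNA damage adaptor, at 2.72, 2.91 and 2.94 against 9.64, 8.85 and 8.41 FPKM (-1.61, SE 0.0703), and the cadherin DCHS1 at 0.803, 0.739 and 0.997 against 4.12, 3.95 and 3.78 FPKM (-2.11, SE 0.117). KMT2D, a histone H3K4 methyltransferase, rose by 1.13 (SE 0.0499). Limma adjusted p of these 4 lay between 2.249e-06 and 2.408e-05. Without shCtrl replicate 2, 5 of the list rose. Of the 90 matched coding-exon pairs in the list 9 were over 2-fold higher in shALKBH5 and 0 lower, and their median log2 ratio was -0.03. Of all matched coding-exon pairs 5.59 and 5.67% were, and of those in genes under 0.5 FPKM 14.4 and 15.7%. Of the low-level pairs past 2-fold, 63.4% had a value on the repeated unit. Only 23 of the 30 genes of the list with a coding-exon peak passed the level filter. Whether level had a part in the 9 was not tested.

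Chromatin regulators had coding-exon peaks in 31 of 37 genes. KMT2C and BPTF had 7 and 6 in each list, and TET1, a DNA demethylase at a mean of 0.277 FPKM, had 8 and 4. SETD1A, an H3K4 methyltransferase, had the largest fold, 22.6 in shALKBH5 and 22.5 in shCtrl, and BPTF had 21.4 and 9.29. Of 35 tested genes 11 rose and 7 fell, where 34.7% of all tested genes rose and 26.2% fell. Apart from KDM6B, the DNA demethylase TET3 (log2 change 0.96) and SETD1A (0.74) rose, and the H3K9 methyltransferase EHMT2 (-0.90) and the remodeler CHD3 (-0.86) fell, with limma adjusted p between 3.747e-06 and 3.575e-05.

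C2H2 zinc finger genes, many of which encode transcriptional repressors, had coding-exon peaks in 261 of 528 genes. Their median fold enrichment was 5.21 in shALKBH5 and 5.87 in shCtrl. Of the 261 genes only 125 passed the level filter of 0.5 FPKM, and all coding-exon peaks in genes under that level had medians of 6.74 and 6.38. Of 122 matched pairs 12 were over 2-fold higher and 19 lower, with a median log2 ratio of -0.15, where 5.59 and 5.67% of all matched coding-exon pairs, and 14.4 and 15.7% of those in genes under 0.5 FPKM, were past 2-fold. Of 309 tested genes 141 rose and 41 fell, and of the 125 tested members with a coding-exon peak 56 rose and 12 fell, against 34.7 and 26.2% of all tested genes. Reads of such closely related genes can be shared. ZNF783 rose (log2 change 1.30), while ZNF106 and ZNF521 fell (log2 changes -1.47 and -1.62) and had more coding-exon peaks in shALKBH5 (3 and 4) than in shCtrl (1 and 2).

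The m6A machinery had 12 coding-exon peaks in shALKBH5 and 10 in shCtrl, in 11 of 22 genes. They were 16.2 and 13.5% of the peaks in these genes, beside 13.3 and 13.4% of all peaks. The strongest were in the writer complex. ZC3H13 had a fold of 11.8 and 11.5, VIRMA up to 8.82 and 7.24 in 2 and 3 peaks, and RBM15 12.4 in shALKBH5 with none in shCtrl. METTL3, the catalytic subunit, had 1.75 in both lists, and METTL14 2.67 and 2.27. Among readers IGF2BP1 had 7.26 and 5.47, and IGF2BP3 3.06 and 2.58. The other demethylase, FTO, had 3.24 and 3.54 and rose from 1.55, 1.63 and 1.57 FPKM in shCtrl to 2.48, 2.46 and 2.36 FPKM in shALKBH5 (log2 change 0.59, SE 0.0758, limma adjusted p = 0.0004007), and IGF2BP3 fell (-0.96). Of the 22 genes 6 rose and 5 fell, against 34.7 and 26.2% of all tested genes. The 5 include ALKBH5, the target of the hairpin, whose peak is also among the 12 in shALKBH5.

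Autophagy genes had coding-exon peaks in 7 of 34. RB1CC1, a scaffold of the initiation complex, had the largest fold, 10.2 in shALKBH5 and 8.77 in shCtrl, AMBRA1 had 4.73 and 5.42, and ATG14, a subunit of the lipid kinase complex, 4.12 and 4.75. Of its 7 matched pairs 0 were past 2-fold, where 11.3% of all matched coding-exon pairs were, so that 7 pairs could not show a difference. Of the 32 tested 20 rose and 1 fell, beside 34.7 and 26.2% of all tested genes. After median ratio rescaling 17 rose and 3 fell, 2 fell with no filter, with eBayes without a trend or without shCtrl replicate 1, and 0 fell with the filter at 1 FPKM. Of the 6 tested genes with a coding-exon peak 2 rose, the cargo receptors OPTN (log2 change 0.55, limma adjusted p = 0.0002317) and NBR1 (0.32, 0.01979), and 0 fell. Among immediate early genes 16 of 29 rose and 9 fell, beside the same shares of all genes. KLF4 had a coding-exon peak of 30.6 in shCtrl with none in shALKBH5 and rose from 0.598, 0.577 and 0.554 FPKM to 1.99, 2.28 and 2.09 FPKM, and KLF11, with 5.35 and 10.1, fell (-1.35).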

How the data were processed

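A375 cells with shALKBH5 or shCtrl were profiled by MeRIP-Seq and by RNA-Seq of the input, 3 libraries of each kind per group, grouped by their labels. The authors deposited FPKM per input library and, for each group, a peak list with the fold enrichment (a ratio of IP over input) and a log10 p and FDR treated here as a score. The authors' own comparison columns (fold changes, p and FDR of expression and differential peaks) were not used; the differential list served for positions only. Aligner, peak caller and pooling of replicates are not given in the sources used here. The submitters' processing notes name mm10, but 99.9% of the 21699 genes matched by symbol overlapped their RefSeq GRCh38.p14 position, so positions are read as human. The data give peak spans and not exon blocks, so whole spans were overlapped, and no peak sequence or motif in peaks was analysed.

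Expression was tested on log2(FPKM + 0.1) with limma 3.58.1 in R 4.3.3 (trend, two-sided, Benjamini-Hochberg over 12985 genes averaging 0.5 FPKM or more); the method was tested on simulated data. Depth was unknown because low FPKM values showed no steps. The labels do not say whether the 3 libraries come from separate cultures, so p-values measure the spread between libraries only, and 3 against 3 cannot go below p = 0.1 in an exact permutation test. Fold changes are on the log2(FPKM + 0.1) scale and understate those of low genes. Peaks were matched one to one at 50% of each on the same strand and differences past 2-fold counted, with no test. Peak steps ran in Python 3.11.15 (pandas 2.3.3, numpy 2.4.6, statsmodels 0.14.6, scipy 1.17.1, matplotlib 3.10.9). Replicate numbers were not treated as pairs, since same-numbered libraries deviated together by correlations of 0.018, -0.046 and 0.059 only.

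The peaks, lists and rules were chosen with earlier results of these data known. Named were ALKBH5, the 10 largest folds in each list and the 10 largest differences each way in genes of at least 5 FPKM with an FDR of at most 0.01, the 5 largest expression changes each way, the 5 genes with most peaks in each list, and examples from gene lists; some genes that these rules name are not reported here. CHPF2, CENPF and ASPM, and the examples on peak number, were chosen after their values were seen. Alternatives were other pseudocounts, filters, scalings and fits, each library left out, stricter peaks and other overlaps; the whole-multiple, position and peak-number alternatives were added after seeing the data.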

Additional observations from a re-analysis of the deposited data

How the results depend on the processing

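Counts of changed genes among all tested genes and among genes with a coding-exon peak stayed within 1.5 times under each expression alternative run, and ALKBH5 kept its call in all of them. With each library left out in turn, 6871 to 7832 of all genes and 1621 to 1909 genes with a coding-exon peak were called, and with the replicate number as a block, 7271 and 1701. The split among genes with a coding-exon peak, 967 higher and 929 lower, turned with no filter (900 and 991), with the replicate block (843 and 858), and without shALKBH5 replicate 1 or 3 or shCtrl replicate 1 or 3. Rescaling each library by its median ratio turned it to 788 and 1068, as it did among all genes (from 4509 and 3408 to 3756 and 3919), and moved the median log2 change of genes with a coding-exon peak from 0.03 to -0.05. The change of PCLO, which was not called, went from -0.02 to between -0.09 and 0.04 with a library left out, and was above 0 without shALKBH5 replicate 2 (0.04), shCtrl replicate 1 (0.04) or shCtrl replicate 3 (0.01).

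When peaks needed a fold of 2 or more and an FDR no higher than 0.01, the coding-exon share went to 13.0% in shALKBH5, and shared peaks to 86.5% in shALKBH5 and 83.7% in shCtrl. Shared peaks were 46.9 and 47.8% when 50% of each had to overlap. The median log2 ratio of matched pairs was 0.01 after subtracting the median of all matched pairs. The shares past 2-fold upward and downward were 8.06 and 7.28% for pairs at 1 bp, 2.63 and 1.68% in genes of at least 5 FPKM, and 2.91 and 2.96% without pairs on whole multiples; the cause was not tested. The shares of genes with more or fewer peaks stayed within their 95% intervals in each alternative, on as few as 12 lower and 2 higher genes with a pseudocount of 1 and 17 lower genes with stricter peaks. Of 701 values recomputed, 677 were counted as kept, by a rule for each kind of value. Counts had to stay within 1.5 times, so the splits that turned are among the 677. A gene had to keep its direction and call, and a share or median had to stay within its 95% interval or library spread. A named pair's ratio had to keep its sign and stay within the SD of the coding-exon pairs. Alternatives that only dropped pairs could not change such a ratio, so part of the 677 was fixed in advance. The motif search in peaks was not run because no genome of the files' build was at hand, and overlap of exon blocks is not distinguished from overlap of spans. With 1 peak list per group and no depth, no peak difference can be told from variation between libraries.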
